A study of Mus musculus with 12 samples.

Results

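Genes that carry cells through mitosis and build the spindle were followed in C22 cells, a mouse club cell line, in 4 groups of 3 libraries each. The set held 40 genes, chosen by name with earlier results of these data known. Shares of the set beside those of all genes are therefore descriptive. All 40 were among the 23282 gene entries of the count tables and among the 12425 genes tested. NC cells carried the negative control and received no TGF-β1, and NC + TGF-β1 cells carried the same control and received 20 ng/ml TGF-β1 for 24 h. siPDCD5 cells had an siRNA knockdown of Pdcd5, which encodes programmed cell death 5, and no TGF-β1, and siPDCD5 + TGF-β1 cells had the knockdown and the same dose of TGF-β1 for the same time. C22 is 1 cloned line from H-2Kb-tsA58 mice, which carry a temperature-sensitive SV40 large T antigen under an interferon-inducible promoter, so all 4 groups share this background. Per the labels, the cells were moved to conditions under which the line differentiates and were deprived of serum before TGF-β1 was added. Nothing in the labels says that the 3 libraries of a group came from separate cultures, so p-values measure only the spread between these libraries, which may be technical.

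Entry into mitosis is driven by the kinase CDK1 bound to B-type cyclins, which CDC25 phosphatases switch on. Aurora and Polo-like kinases, kinesins and microtubule-binding proteins then build the spindle, kinetochores attach chromosomes to it, and the spindle assembly checkpoint holds CDC20 and the anaphase-promoting complex back until all chromosomes are attached. Most of these genes are transcribed together late in the cell cycle and are repressed in resting cells, through promoter elements bound by the DREAM and MuvB complexes, NF-Y and FOXM1. TGF-β is known as an inhibitor of the growth of epithelial cells. In bulk RNA, fewer dividing cells and less of these RNAs per cell cannot be told apart.

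The 12 libraries held between 12809857 and 17714828 counts on genes, so that 3 counts, taken as the smallest level a library can show, correspond to 0.165 to 0.239 CPM (counts per 1000000, scaled by TMM factors). Pdcd5 was at 73.5, 65.8 and 65.1 CPM in NC, at 66.3, 69.7 and 67.5 CPM in NC + TGF-β1, at 21.2, 20.0 and 22.1 CPM in siPDCD5 and at 24.1, 21.8 and 26.3 CPM in siPDCD5 + TGF-β1. The knockdown libraries were all lower than the others, with log2 fold changes of −1.69 ± 0.10 without and −1.49 ± 0.10 with TGF-β1 (SE, adjusted p = 1.09e-06 and 5.47e-06). Pdcd5 has a pseudogene, and multiple alignments were counted. Of the defining club cell markers, Scgb3a2 and Cyp2f2 were at 0 in all 12 libraries and Scgb1a1 was at 0 in 11 of them, while the keratins Krt8 and Krt18 were present. Of 9 club and airway markers 4 passed the filter on low counts, and after TGF-β1 2 of them rose (Krt8 and Krt18) and 1 fell (Foxa2) in both NC and siPDCD5 cells. Among 7 fibroblast markers, 3 rose and 1 fell past the threshold after TGF-β1 in both NC and siPDCD5 cells, and their summed level was 3749 to 3985 CPM in NC, 7420 to 8042 CPM in NC + TGF-β1, 2538 to 3119 CPM in siPDCD5 and 5589 to 5943 CPM in siPDCD5 + TGF-β1. This level, mostly the collagens Col1a1 and Col3a1, rose with TGF-β1 while the mitosis genes below fell, and its part in their change was not tested. Of the fibroblast markers, Lum was at 0 in 11 libraries and Dcn fell. Endothelial, immune and alveolar type 2 markers summed to at most 2.47, 11.96 and 3.70 CPM in any library.

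In 2 libraries, CDK1 and a few other mitosis genes stood apart from the rest of their group. NC + TGF-β1 replicate 2 held 81.0 CPM of Cdk1 against 28.0 and 33.8 CPM in the other replicates, and siPDCD5 replicate 1 held 113 CPM against 49.9 and 56.9 CPM. Relative to the mean of the other 2 libraries of its group, 6 of the 40 genes were over 1.5-fold higher in the first of these (Cdk1, Ccnb2, Bub1b, Mad2l1, Kif20a and Cenpa) and 3 in the second (Cdk1, Ccnb1 and Cenpa). Both libraries also differed most from their group mates over all genes. The NC + TGF-β1 library also held 2 genes over 1.5-fold lower (Ttk and Cdc25c). In it 24 of the 40 were above and 16 below the mean of the others, and in the siPDCD5 library 21 and 19. The share of all genes over 1.5-fold apart was not counted. NC + TGF-β1 replicate 2 was the highest of its group for 21 of the 40 and 40.4% of all genes, and the lowest for 12 and 41.9%. For siPDCD5 replicate 1 these were 15 and 40.6%, and 13 and 39.3%. The counts over the 40 genes are therefore given with all libraries and without these 2, a choice made after the levels of these genes were seen. Calls without them, above all for Cdk1 and the other genes high in them, follow in part from that choice. The counts by role, for other lists and by promoter match are with all libraries.

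Sequence upstream of the genes is shown first, since the elements that are known to time their transcription lie there. Windows from 250 bases before to 50 bases after the start site were taken from RefSeq (GRCm38.p6), 1 per gene, and were found for 33 of the 40 genes. They were searched on both strands for the cell cycle homology region (CHR), a short element bound by MuvB complexes, as TTTGAA, and for the CCAAT box, bound by NF-Y, as CCAAT. A CHR match was present in 24 of 33 windows (72.7%) and in 18.1% of the windows of all 27025 symbols in the table. A CCAAT match was present in 25 of 33 (75.8%) against 37.9%, and both together in 21 of 33 (63.6%) against 7.12%. At least 2 CCAAT matches were present in 17 windows (51.5%) against 12.2%. The CHR variant TTCGAA was present in 4 windows (12.1%) against 1.57%, and the E2F-type sequence TTCCCGC in 0 windows against 4.66%. These are matches of letters and not measured binding, and no match says only that the letters are not in the window. For 30 of the 33 windows the last 25 bases lay within the first 600 bases of a GENCODE transcript of the gene. The Kif2c window, counted with a CHR match, lies inside the gene as annotated by GENCODE. Bub3, Prc1 and Ect2 had more than 1 window, and the first listed was used.

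The 4 windows below are those of the genes with the highest mean CPM among the 21 that hold both elements. They run from 250 bases before to 20 bases after the start site, 5′ to 3′ on the strand of the gene, with CHR and CCAAT matches on either strand in capitals. Top2a (topoisomerase IIα, chr11:99024170-99024439, minus strand) and Cenpf (a kinetochore protein, chr1:189688067-189688336, minus strand) fell after TGF-β1 in NC cells, while Bub3 (a checkpoint protein, chr7:131560120-131560389, plus strand) was not called in any comparison and Cdk1 (chr10:69352893-69353162, minus strand) depended on the 2 libraries named above.
Top2a: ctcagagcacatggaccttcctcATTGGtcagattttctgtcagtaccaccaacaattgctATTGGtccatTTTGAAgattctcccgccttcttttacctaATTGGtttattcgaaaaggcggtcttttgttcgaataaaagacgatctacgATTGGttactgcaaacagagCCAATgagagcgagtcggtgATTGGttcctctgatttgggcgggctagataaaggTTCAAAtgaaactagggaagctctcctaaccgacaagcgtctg
Bub3: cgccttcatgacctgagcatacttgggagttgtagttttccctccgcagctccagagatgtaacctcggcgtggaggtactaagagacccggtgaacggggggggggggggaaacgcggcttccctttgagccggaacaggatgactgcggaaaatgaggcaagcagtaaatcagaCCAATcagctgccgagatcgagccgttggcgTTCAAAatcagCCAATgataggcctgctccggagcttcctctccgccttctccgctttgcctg
Cdk1: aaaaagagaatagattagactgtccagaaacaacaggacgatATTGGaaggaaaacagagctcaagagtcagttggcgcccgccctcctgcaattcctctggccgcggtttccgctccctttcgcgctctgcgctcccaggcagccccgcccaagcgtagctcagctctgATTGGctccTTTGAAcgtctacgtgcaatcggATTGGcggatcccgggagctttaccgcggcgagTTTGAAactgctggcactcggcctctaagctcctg
Cenpf: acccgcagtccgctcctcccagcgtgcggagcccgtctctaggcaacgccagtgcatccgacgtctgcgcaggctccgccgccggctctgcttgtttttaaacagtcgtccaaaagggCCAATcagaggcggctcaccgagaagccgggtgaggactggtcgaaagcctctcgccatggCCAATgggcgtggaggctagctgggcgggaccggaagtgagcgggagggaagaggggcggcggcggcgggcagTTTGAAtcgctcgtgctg
The Top2a window holds 2 CHR and 6 CCAAT matches, the Cdk1 window 2 and 3, and the Bub3 and Cenpf windows each 1 CHR and 2 CCAAT matches. Over the 33 windows the median position of a CHR match was 5 bases before the start site and that of a CCAAT match 71 bases before it, so that CHR matches lay closer to the start.

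**Figure D1:**
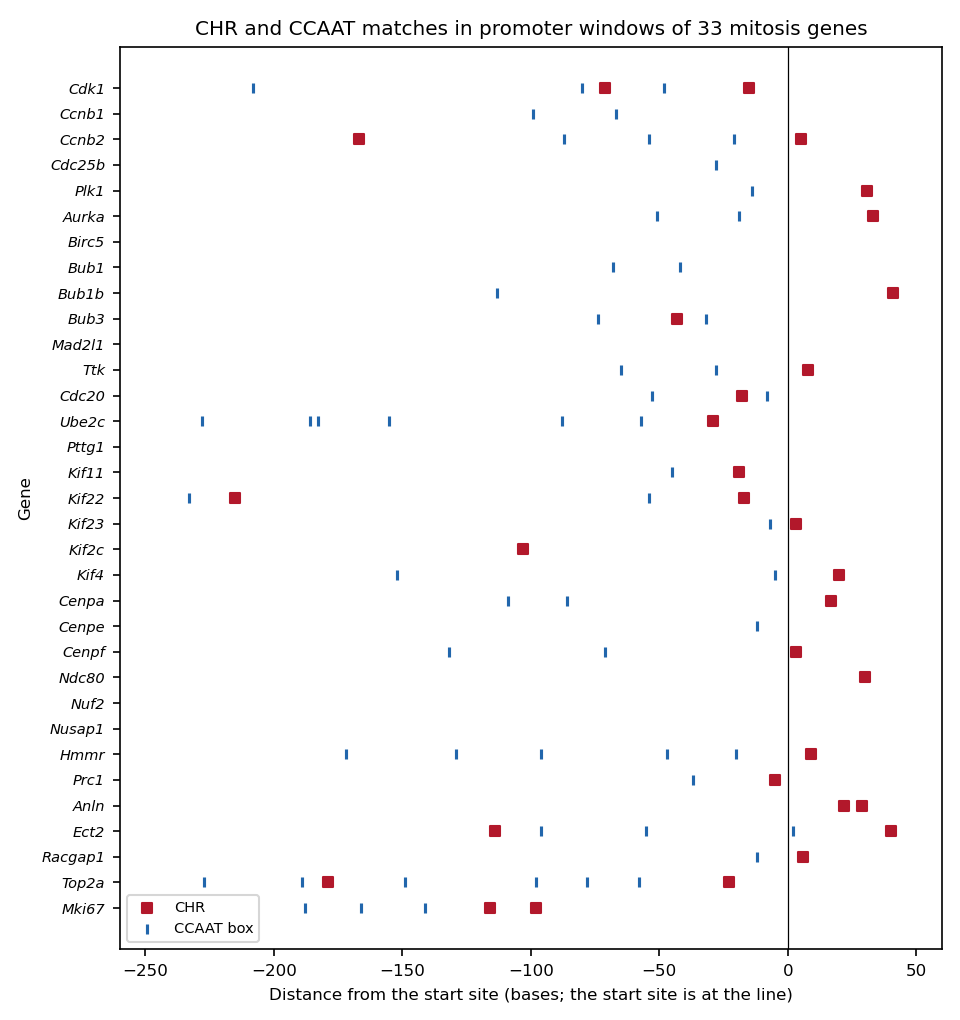
Positions of CHR (TTTGAA, squares) and CCAAT (ticks) matches on either strand in the promoter windows of 33 mitosis genes, as distance from the start site in bases, 1 row per gene. CHR matches gather around the start site (median −5) and CCAAT matches upstream of it (median −71), and 21 rows hold both.

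TGF-β1 lowered mitosis genes in NC cells. Of the 40 genes, 14 fell and 0 rose past an adjusted p of 0.05 (edgeR quasi-likelihood test, Benjamini-Hochberg over all 12425 genes), where 6.77% of all genes tested fell and 8.57% rose. The estimate was below 0 for 35 of the 40, and their median log2 fold change was −0.44 against 0.005 over all genes tested. The 3 NC + TGF-β1 libraries lay wholly below the 3 NC libraries for 23 of the 40 genes, which was the case for 14.3% of all genes. The count was 25 of 40 without the 2 libraries that stood apart, where 13.8% of all genes fell, with Cdk1, Ccna2, Ccnb1, Plk1, Mad2l1, Kif23, Cenpa, Ndc80, Prc1, Anln and Ect2 called beside the 14. The summed level of the 40 genes was 1433 ± 73.8 CPM in NC and 1137 ± 45.0 CPM in NC + TGF-β1 (mean ± SD, n = 3), and the libraries of these groups did not overlap.

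In cells with Pdcd5 knockdown TGF-β1 also lowered mitosis genes. Here 10 of the 40 fell and 0 rose, where 7.61% of all genes tested fell and 8.5% rose, and the estimate was below 0 for 36. Their median log2 fold change was −0.34 against −0.03 over all genes. For 20 of the 40 the siPDCD5 + TGF-β1 libraries lay wholly below the siPDCD5 libraries, against 18.1% of all genes, and for 1, Aurka, wholly above, against 17.9%. The count was 18 without the 2 libraries that stood apart, where 12.4% of all genes fell, with Cdk1, Plk1, Kif11, Cenpe, Ndc80, Nuf2, Anln and Mki67 called beside the 10, and 16 without NC + TGF-β1 replicate 2 alone. It was 6 with limma-trend on quantile-normalized values, 5 without siPDCD5 replicate 1, siPDCD5 + TGF-β1 replicate 1 or siPDCD5 + TGF-β1 replicate 2, and 6 without siPDCD5 replicate 2 or siPDCD5 + TGF-β1 replicate 3. The summed level was 1549 ± 64.6 CPM in siPDCD5 and 1288 ± 17.5 CPM in siPDCD5 + TGF-β1 (mean ± SD, n = 3).

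**Figure D2:**
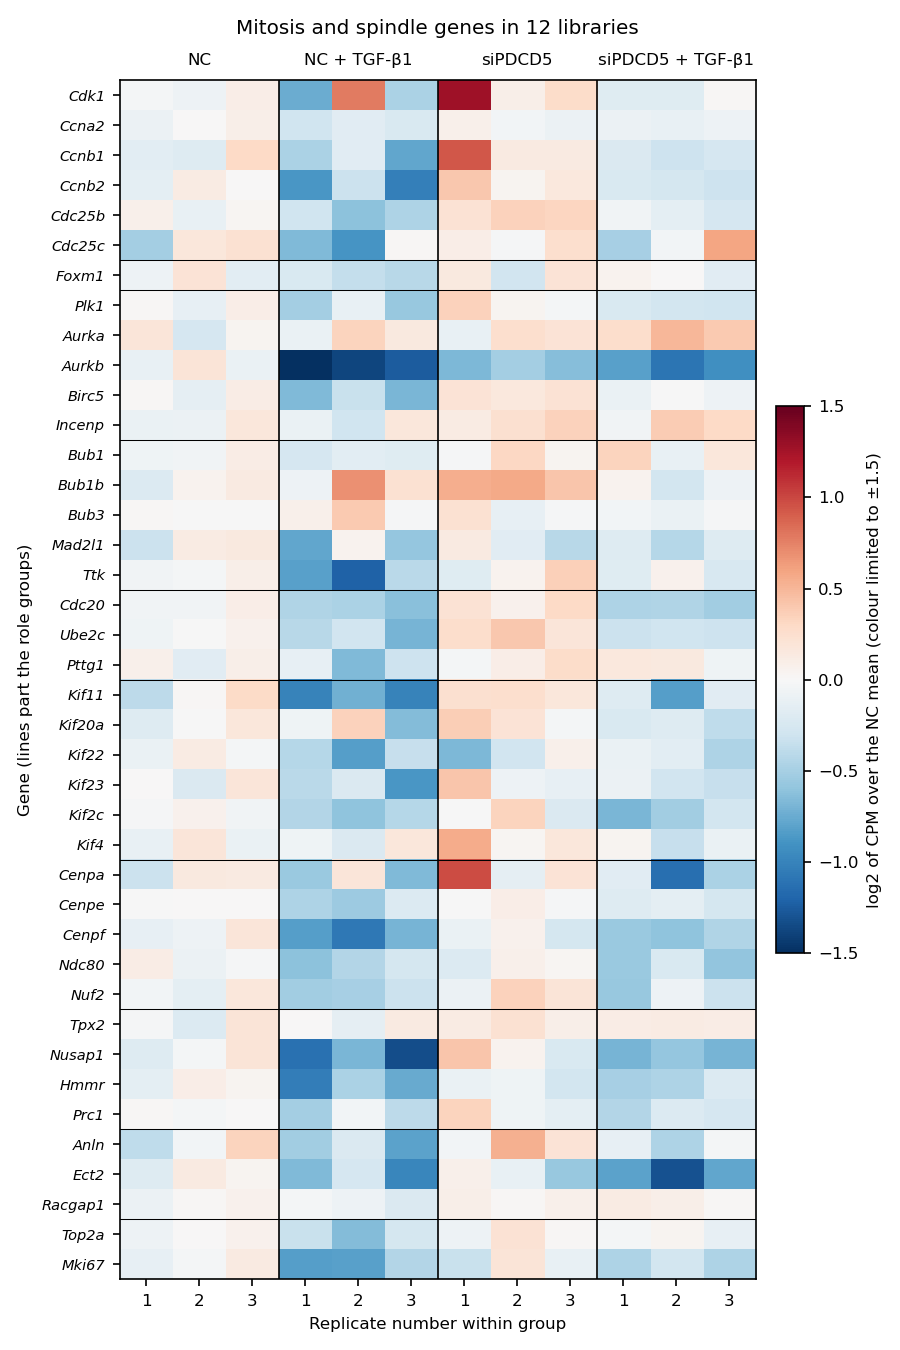
Level of each of the 40 genes (rows, parted by role) in the 12 libraries (columns, 3 per group), as log2 of CPM over the mean of the NC libraries, blue lower and red higher. Blue prevails in both TGF-β1 groups, and Cdk1 is red in NC + TGF-β1 replicate 2 and siPDCD5 replicate 1.

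The comparisons of TGF-β1 in NC and in siPDCD5 cells share no library, but 1 model of all 12 libraries gave the spread for both. Their calls are therefore not independent, and the count in siPDCD5 cells was 16 without NC + TGF-β1 replicate 2, which is not compared there. Cdc20, Cdc25b, Cenpf, Nusap1 and Ube2c fell in both, which is 35.7% of the 14 genes called in NC cells and 50% of the 10 called in siPDCD5 cells. How many of all genes tested were called lower in both was not counted, so this overlap has no share of all genes to stand beside. The estimate was below 0 in both for 32 genes and above 0 in both for Aurka alone, and the remaining 7 had opposite signs. Of all genes tested, 37.8% had an estimate below 0 in both. The estimates of both comparisons correlated over the 40 genes with r = 0.27 (Spearman's rho 0.31) and over all genes with r = 0.75, as a description across genes, which are not independent. A gene called in only one of the 2 comparisons is not thereby shown to differ between them, and the test of that difference is given below.

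**Figure D3:**
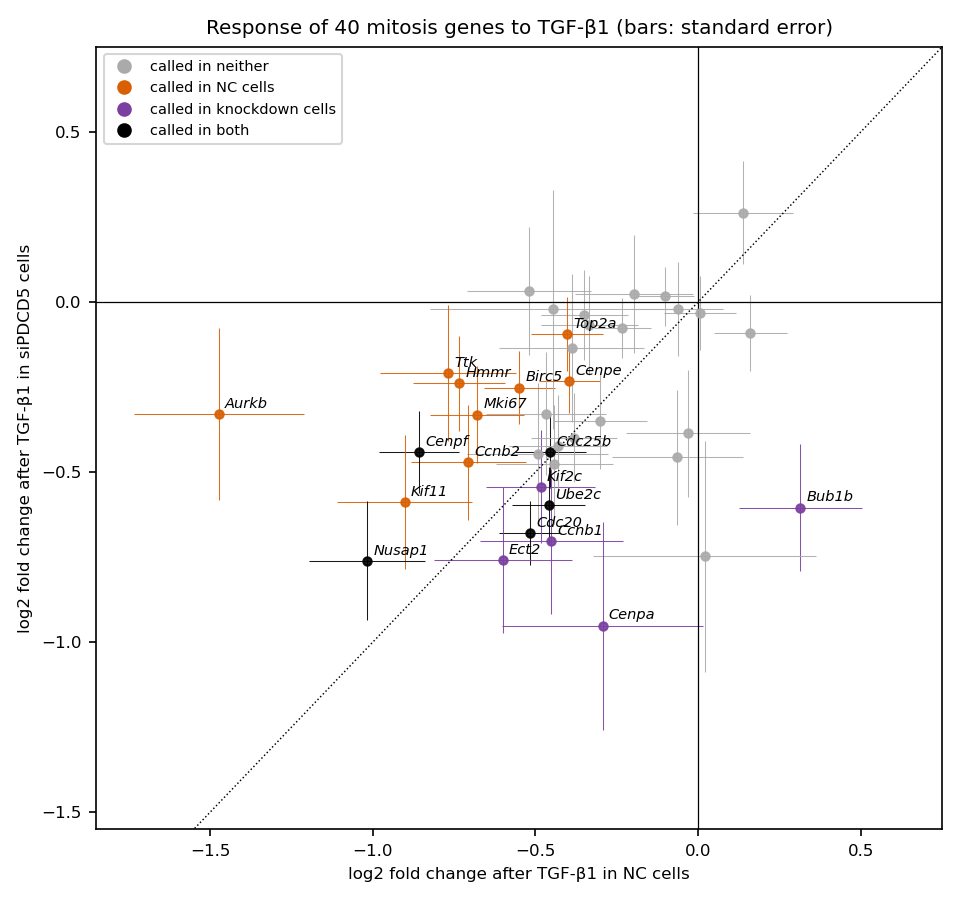
Log2 fold change after TGF-β1 in NC cells (horizontal) and in siPDCD5 cells (vertical) for the 40 genes, with standard errors and the line of equality dotted. Of the 40 points, 32 lie in the lower left part, and the 5 black points, among them Cdc20 and Nusap1, were called in both.

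The counts by role that follow stand beside the 6.77% (NC) and 7.61% (siPDCD5) of all genes tested that fell after TGF-β1. Among CDK1, its cyclins and the CDC25 phosphatases, 2 of 6 fell in NC cells (Ccnb2 and Cdc25b) and 2 of 6 in siPDCD5 cells (Cdc25b and Ccnb1). Cdc25b, the phosphatase that starts CDK1 activation at the centrosome, was at 36.2, 31.9 and 35.3 CPM in NC and 28.1, 22.4 and 24.9 CPM in NC + TGF-β1, and at 40.1, 43.7 and 43.0 CPM in siPDCD5 and 33.4, 31.2 and 28.9 CPM in siPDCD5 + TGF-β1. The treated libraries were below the untreated ones in both backgrounds, with a log2 fold change of −0.45 ± 0.11 (SE, adjusted p = 0.00983) in NC and −0.44 ± 0.11 (adjusted p = 0.0107) in siPDCD5 cells. Ccnb1, a cyclin that CDK1 needs to start mitosis, was at 21.2, 20.7 and 29.1 CPM in NC, 17.0, 21.1 and 13.8 CPM in NC + TGF-β1, 45.2, 26.0 and 25.9 CPM in siPDCD5 and 20.4, 19.1 and 19.9 CPM in siPDCD5 + TGF-β1. Its libraries overlapped in NC cells and did not in siPDCD5 cells, where it fell by 38.6% (log2 fold change −0.70 ± 0.21, adjusted p = 0.0377), and siPDCD5 replicate 1 was the highest. Its estimate without the 2 libraries that stood apart was −0.63 in NC and −0.39 in siPDCD5 cells, and both passed the threshold. Without siPDCD5 replicate 1 alone Ccnb1 was not called in siPDCD5 cells. There it passed in 12 of 20 alternative settings, over which the adjusted p ran from 0.0124 to 0.183. The related Ccnb2 fell in NC cells (log2 fold change −0.71, adjusted p = 0.0125) and had an estimate of −0.47 in siPDCD5 cells (adjusted p = 0.0770).

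Cdk1 itself, the kinase of the group, was at 46.1, 44.4 and 50.4 CPM in NC, 28.0, 81.0 and 33.8 CPM in NC + TGF-β1, 113, 49.9 and 56.9 CPM in siPDCD5 and 41.4, 41.6 and 47.7 CPM in siPDCD5 + TGF-β1. In NC cells 2 of the 3 treated libraries were below all untreated ones and the third was above them, and the log2 fold change was 0.02 ± 0.34 (adjusted p = 0.980). It was −0.75 ± 0.34 in siPDCD5 cells (adjusted p = 0.162). Without the 2 libraries that stood apart Cdk1 passed the threshold in both, at −0.61 ± 0.11 (adjusted p = 0.000150) in NC and −0.29 ± 0.10 (adjusted p = 0.0432) in siPDCD5 cells, so that whether it was called was decided by them. The 2 libraries were set apart with their high Cdk1 in view, so these calls follow in part from that choice and are no separate test. Ccna2, the cyclin of S and G2 phase, and Cdc25c did not pass in either background with all libraries. The transcription factor Foxm1, which binds MuvB and activates these genes, was at 18.3, 22.2 and 17.4 CPM in NC, 16.4, 15.1 and 14.4 CPM in NC + TGF-β1, 21.3, 15.8 and 22.3 CPM in siPDCD5 and 20.0, 19.4 and 17.1 CPM in siPDCD5 + TGF-β1. Its log2 fold change after TGF-β1 was −0.33 (adjusted p = 0.163) in NC and −0.07 (adjusted p = 0.802) in siPDCD5 cells, without overlap in the former and with overlap in the latter.

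Of the mitotic kinases and the chromosomal passenger complex, Aurkb and Birc5 fell in NC cells, and in siPDCD5 cells edgeR called none of 5. DESeq2 called Plk1 lower in both backgrounds. Aurkb, the kinase of the complex that corrects wrong attachments, had the largest fall of the 40 genes in NC cells, from 3.04, 3.78 and 3.07 CPM to 0.876, 1.27 and 1.39 CPM. The 3 treated libraries were all lower, and Aurkb fell by 64.0% (log2 fold change −1.47 ± 0.26, adjusted p = 0.00115). These are low levels, with 11, 17 and 19 counts in the NC + TGF-β1 libraries. In siPDCD5 and siPDCD5 + TGF-β1 Aurkb was at 2.07, 2.32 and 2.12 and at 1.88, 1.54 and 1.75 CPM, a log2 fold change of −0.33 ± 0.25 (adjusted p = 0.426). Birc5 encodes survivin, which brings the complex to centromeres, and was at 43.4, 39.3 and 46.3 CPM in NC, 27.1, 34.2 and 26.8 CPM in NC + TGF-β1, 49.5, 47.9 and 49.8 CPM in siPDCD5 and 40.3, 42.7 and 40.7 CPM in siPDCD5 + TGF-β1. It was lower in every treated library of both backgrounds, with a log2 fold change of −0.55 (adjusted p = 0.00282) in NC and −0.25 (adjusted p = 0.135) in siPDCD5 cells. Incenp, the scaffold of the complex, was at 40.3, 40.9 and 48.7 CPM in NC, 40.4, 35.3 and 48.6 CPM in NC + TGF-β1, 47.1, 51.3 and 55.0 CPM in siPDCD5 and 41.7, 56.2 and 53.4 CPM in siPDCD5 + TGF-β1, and its libraries overlapped in both backgrounds. Plk1 and Aurka, which act at the spindle poles, had log2 fold changes of −0.38 and 0.14 in NC and −0.40 and 0.26 in siPDCD5 cells, with adjusted p from 0.0536 to 0.635.

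In the spindle assembly checkpoint 1 of 5 genes was called in each background, Ttk in NC and Bub1b in siPDCD5 cells. Ttk, the kinase that starts the checkpoint signal, was at 7.83, 7.94 and 8.60 CPM in NC and 4.62, 3.51 and 6.14 CPM in NC + TGF-β1, with every treated library lower (log2 fold change −0.77 ± 0.21, adjusted p = 0.0214). In siPDCD5 and siPDCD5 + TGF-β1 it was at 7.16, 8.44 and 10.4 and at 7.18, 8.49 and 6.86 CPM, and the libraries overlapped. Bub1b encodes BubR1, which inhibits CDC20, and was at 6.46, 7.71 and 8.21 CPM in NC, 7.09, 11.96 and 8.77 CPM in NC + TGF-β1, 10.8, 11.1 and 9.98 CPM in siPDCD5 and 7.72, 6.17 and 7.06 CPM in siPDCD5 + TGF-β1. Its estimate was above 0 in NC cells (0.31 ± 0.19, adjusted p = 0.319) and below 0 in siPDCD5 cells (−0.60 ± 0.19, adjusted p = 0.0405), and the libraries overlapped in the former and did not in the latter. Bub3, which carries BubR1 and BUB1 to kinetochores, was at 119, 117 and 116 CPM in NC, 124, 154 and 116 CPM in NC + TGF-β1, 138, 108 and 116 CPM in siPDCD5 and 114, 109 and 116 CPM in siPDCD5 + TGF-β1. Treated and untreated libraries overlapped in both backgrounds, and the 95% intervals of the log2 fold change of Bub3 after TGF-β1 were −0.08 to 0.40 in NC and −0.33 to 0.15 in siPDCD5 cells. Bub1 and Mad2l1 did not pass either, with estimates of −0.20 and −0.39 in NC and 0.02 and −0.14 in siPDCD5 cells.

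Of 3 genes of anaphase entry, Cdc20 and Ube2c fell in both backgrounds and Pttg1 was called in neither. Cdc20, the activator of the anaphase-promoting complex, was at 55.7, 55.6 and 61.5 CPM in NC, 42.0, 41.5 and 37.3 CPM in NC + TGF-β1, 67.2, 60.4 and 70.9 CPM in siPDCD5 and 41.7, 42.1 and 39.995 CPM in siPDCD5 + TGF-β1. It fell by 30.1% in NC (log2 fold change −0.52 ± 0.09, adjusted p = 0.00147) and by 37.6% in siPDCD5 cells (−0.68 ± 0.09, adjusted p = 0.000153). Ube2c, the ubiquitin-conjugating enzyme of the same complex, was at 36.5, 38.0 and 39.997 CPM in NC, 28.7, 31.2 and 23.5 CPM in NC + TGF-β1, 45.9, 50.6 and 43.2 CPM in siPDCD5 and 30.6, 30.9 and 30.9 CPM in siPDCD5 + TGF-β1. It too was lower in every treated library, with a log2 fold change of −0.46 ± 0.11 (adjusted p = 0.0110) in NC and −0.60 ± 0.11 (adjusted p = 0.00168) in siPDCD5 cells. The 3′ ends of Cdc20 and Ube2c overlap Elovl1 and Tnnc2 on the opposite strand, and since the use of strand in counting is not stated, reads of such a pair may not be told apart. The same holds for Ccna2, Bub3, Kif20a and Prc1, and Foxm1 overlaps entries on its own strand. Elovl1 itself was not called in any comparison (log2 fold change after TGF-β1 0.22 in NC and 0.03 in siPDCD5 cells), and Tnnc2 was below 1 CPM in all 12 libraries. Pttg1 encodes securin, the inhibitor of separase, and was at 111, 93.1 and 111 CPM in NC, 96.6, 66.2 and 84.4 CPM in NC + TGF-β1, 103, 113 and 127 CPM in siPDCD5 and 117, 117 and 100.5 CPM in siPDCD5 + TGF-β1. Its libraries overlapped in both backgrounds, and its log2 fold change was −0.35 (adjusted p = 0.102) in NC and −0.04 (adjusted p = 0.882) in siPDCD5 cells.

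**Figure D4:**
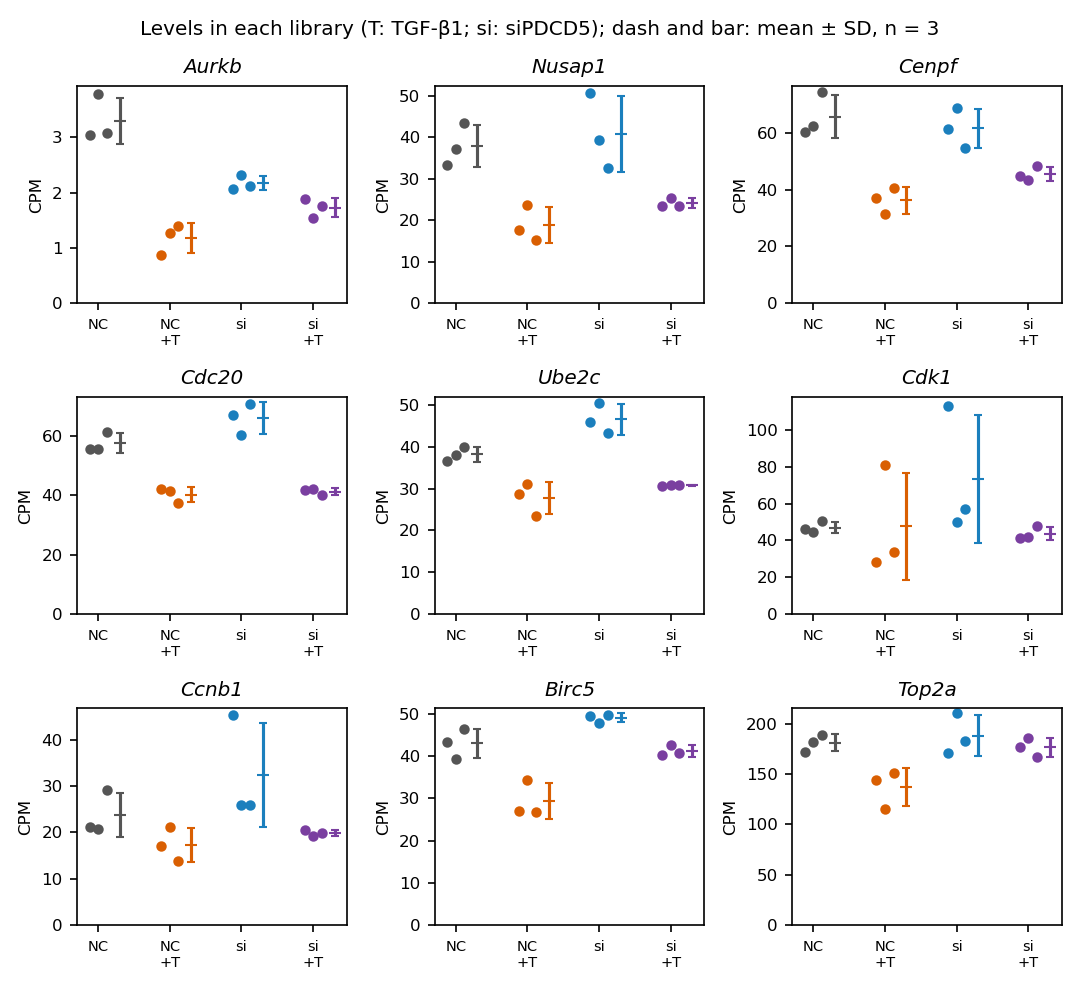
CPM of 9 mitosis genes in each library (points) with the mean and SD of each group (dash and bar, n = 3), for NC, NC + TGF-β1 (NC +T), siPDCD5 (si) and siPDCD5 + TGF-β1 (si +T), with vertical axes from 0. Cdc20 and Ube2c were lower in every treated library, whereas Cdk1 has 1 high library in NC + TGF-β1 (81.0 CPM) and 1 in siPDCD5 (113 CPM).

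One of 6 kinesins was called in each background, although the estimates of all 6 were below 0 in NC cells. Kif11, the motor that pushes the spindle poles apart, was at 7.83, 10.4 and 12.5 CPM in NC and 5.10, 6.20 and 5.12 CPM in NC + TGF-β1, with no overlap (log2 fold change −0.90 ± 0.21, adjusted p = 0.00747). It was at 12.1, 12.2 and 11.5 CPM in siPDCD5 and 8.93, 5.79 and 9.07 CPM in siPDCD5 + TGF-β1, again with no overlap, though short of the threshold (−0.59 ± 0.20, adjusted p = 0.0580). DESeq2 called Kif11 lower in both backgrounds. Kif2c, a microtubule depolymerase at centromeres, was at 10.9, 11.5 and 10.6 CPM in NC, 8.12, 7.25 and 8.19 CPM in NC + TGF-β1, 10.9, 13.9 and 9.46 CPM in siPDCD5 and 6.85, 7.64 and 9.07 CPM in siPDCD5 + TGF-β1. It was lower in every treated library of both backgrounds and passed in siPDCD5 cells (−0.54 ± 0.17, adjusted p = 0.0381) but not in NC cells (−0.48 ± 0.17, adjusted p = 0.0707). Kif23, the motor of the central spindle, was at 22.8, 19.5 and 25.7 CPM in NC, 17.2, 19.6 and 12.4 CPM in NC + TGF-β1, 30.3, 21.5 and 20.9 CPM in siPDCD5 and 21.3, 18.5 and 17.8 CPM in siPDCD5 + TGF-β1, and its libraries overlapped. Kif20a, Kif22 and Kif4 ranged from −0.52 to −0.03 in NC and from −0.46 to 0.03 in siPDCD5 cells. Kif22 and Kif4 have pseudogenes, as do Ccnb1 and Ccnb2, and multiple alignments were counted, so their counts are uncertain.

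At the centromere and kinetochore 2 of 5 genes fell in NC cells (Cenpe and Cenpf) and 2 in siPDCD5 cells (Cenpa and Cenpf). Cenpf, an outer kinetochore protein, was at 60.6, 62.6 and 74.5 CPM in NC, 37.1, 31.3 and 40.7 CPM in NC + TGF-β1, 61.5, 68.9 and 54.9 CPM in siPDCD5 and 44.8, 43.4 and 48.3 CPM in siPDCD5 + TGF-β1. Its groups did not overlap in either background, and it fell by 44.8% in NC (log2 fold change −0.86 ± 0.12, adjusted p = 0.000188) and by 26.4% in siPDCD5 cells (−0.44 ± 0.12, adjusted p = 0.0227). Cenpa, the histone variant that marks centromeres, was at 9.58, 13.3 and 13.2 CPM in NC, 8.20, 13.6 and 7.60 CPM in NC + TGF-β1, 23.7, 10.9 and 13.9 CPM in siPDCD5 and 10.7, 5.48 and 8.67 CPM in siPDCD5 + TGF-β1. Its libraries overlapped in NC cells and did not in siPDCD5 cells. It was called in siPDCD5 cells at −0.95 ± 0.31 (adjusted p = 0.0482), with siPDCD5 replicate 1 the highest library, and without the 2 libraries that stood apart the estimate was −0.57 ± 0.21 (adjusted p = 0.0449). Without siPDCD5 replicate 1 alone Cenpa was not called there, and it passed in 10 of 20 alternative settings. Cenpe, the kinesin that moves chromosomes to the spindle equator, was at 105, 106 and 106 CPM in NC, 76.7, 72.2 and 91.7 CPM in NC + TGF-β1, 105, 113 and 104 CPM in siPDCD5 and 91.9, 95.04 and 87.8 CPM in siPDCD5 + TGF-β1. All its treated libraries were lower in both backgrounds, with adjusted p of 0.00966 in NC and 0.114 in siPDCD5 cells. Ndc80 and Nuf2, partners in the complex that holds microtubules, had log2 fold changes of −0.43 and −0.44 in NC and −0.42 and −0.48 in siPDCD5 cells, and none passed.

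Of the 4 spindle microtubule proteins, Nusap1 and Hmmr fell in NC cells and Nusap1 in siPDCD5 cells. Nusap1, which bundles spindle microtubules, was at 33.3, 37.2 and 43.4 CPM in NC, 17.5, 23.5 and 15.1 CPM in NC + TGF-β1, 50.6, 39.4 and 32.5 CPM in siPDCD5 and 23.4, 25.5 and 23.4 CPM in siPDCD5 + TGF-β1. Every treated library was below every untreated one in each background, and Nusap1 fell by 50.6% in NC (log2 fold change −1.02 ± 0.18, adjusted p = 0.00105) and fell by 41.0% in siPDCD5 cells (−0.76 ± 0.18, adjusted p = 0.00767). Hmmr, a spindle and hyaluronan-binding protein, was at 30.3, 35.7 and 34.2 CPM in NC and 16.2, 24.1 and 19.8 CPM in NC + TGF-β1 (log2 fold change −0.74 ± 0.14, adjusted p = 0.00224). In siPDCD5 and siPDCD5 + TGF-β1 it was at 31.2, 31.8 and 27.5 and at 23.6, 24.2 and 28.9 CPM, and these overlapped. Tpx2, the activator of Aurora A, was at 37.8, 33.2 and 43.6 CPM in NC, 38.3, 34.8 and 42.0 CPM in NC + TGF-β1, 41.8, 44.7 and 40.6 CPM in siPDCD5 and 41.3, 41.7 and 41.4 CPM in siPDCD5 + TGF-β1. Its estimates were near 0, with 95% intervals of −0.23 to 0.24 in NC and −0.27 to 0.20 in siPDCD5 cells. Prc1, which crosslinks the central spindle, had estimates of −0.30 and −0.35 and did not pass.

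For cytokinesis, edgeR called 0 of 3 genes in NC cells, where DESeq2 called Ect2 lower, and 1 in siPDCD5 cells. Ect2, the exchange factor that activates RhoA at the cleavage furrow, was at 13.2, 16.5 and 15.5 CPM in NC, 9.55, 12.6 and 7.68 CPM in NC + TGF-β1, 15.9, 14.0 and 10.2 CPM in siPDCD5 and 8.66, 6.09 and 8.81 CPM in siPDCD5 + TGF-β1. Its groups did not overlap in either background, and it passed in siPDCD5 cells (−0.76 ± 0.21, adjusted p = 0.0256) but not in NC cells (−0.60 ± 0.21, adjusted p = 0.0745). Racgap1, its partner at the central spindle, was at 48.1, 51.6 and 53.2 CPM in NC, 50.1, 48.5 and 43.9 CPM in NC + TGF-β1, 54.2, 51.4 and 53.7 CPM in siPDCD5 and 55.4, 54.3 and 51.4 CPM in siPDCD5 + TGF-β1, with 95% intervals of its log2 fold change of −0.29 to 0.09 in NC and −0.17 to 0.20 in siPDCD5 cells. Anln, which binds actin and myosin at the furrow, had estimates of −0.49 and −0.45 and was not called with all libraries. Both genes of the mitotic chromosome fell in NC cells and neither was called in siPDCD5 cells with all libraries. Top2a, which untangles sister chromatids, was at 173, 182 and 189 CPM in NC, 144, 116 and 151 CPM in NC + TGF-β1, 171, 211 and 183 CPM in siPDCD5 and 177, 186 and 167 CPM in siPDCD5 + TGF-β1. It was lower in every treated NC library (−0.40, adjusted p = 0.0205) and overlapped in siPDCD5 cells (−0.09, adjusted p = 0.618). Mki67 encodes Ki-67, the surfactant of mitotic chromosomes and a widely used proliferation marker, and its log2 fold change was −0.68 (adjusted p = 0.00461) in NC and −0.33 (adjusted p = 0.141) in siPDCD5 cells.

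Pdcd5 knockdown without TGF-β1 called none of the 40 genes, where 3.44% of all genes tested were called (0.901% higher and 2.54% lower). At an unadjusted p under 0.05 there were 4 (DESeq2 and limma-trend on quantile-normalized values also called 0), against 15.7% of all genes. The estimate was above 0 for 31 of the 40, with a median log2 fold change of 0.12 against 0.02 over all genes. Relative to NC, the siPDCD5 libraries lay wholly above for 4 genes (Birc5, Bub1b, Cdc25b and Ube2c), against 10.6% of all genes, and wholly below for 1, Aurkb, against 12.5%. The smallest p-values were those of Cdc25b (0.29 ± 0.11, adjusted p = 0.180), Bub1b (0.51 ± 0.19, adjusted p = 0.185) and Ube2c (0.29 ± 0.11, adjusted p = 0.209). For 37 of the 40 the whole 95% interval lay within 1 on the log2 scale, so changes over 2-fold were outside it, with Aurkb, Cdk1 and Cenpa as the exceptions. Without the 2 libraries that stood apart, Cdc25b alone was called (adjusted p = 0.0490), where 3.56% of all genes rose and 5.54% fell.

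With TGF-β1, knockdown raised 1 of the 40 genes, Birc5, where 0.33% of all genes tested rose, and lowered 0, where 1.22% fell. Birc5 was at 27.1, 34.2 and 26.8 CPM in NC + TGF-β1 and 40.3, 42.7 and 40.7 CPM in siPDCD5 + TGF-β1, with every knockdown library higher (log2 fold change 0.49 ± 0.11, adjusted p = 0.0419). It was past the threshold in 8 of 20 alternative settings, over which the adjusted p ran from 0.000356 to 0.190. Among the fits without 1 library it was called only without NC + TGF-β1 replicate 2 or siPDCD5 replicate 1. Next by p-value were Top2a (0.37 ± 0.11, adjusted p = 0.127) and Pttg1 (0.44 ± 0.13, adjusted p = 0.137), both higher in all 3 knockdown libraries. The estimate was above 0 for 32 of the 40, with a median of 0.21 against −0.02 over all genes, and 12 lay wholly above NC + TGF-β1, against 8.84% of all genes, and 1, Bub3, wholly below, against 10%. Without the 2 libraries that stood apart, 6 rose (Birc5, Ccnb2, Cdk1, Hmmr, Nusap1 and Top2a), where 2.73% of all genes did, and 0 fell, where 5.7% did. Both knockdown comparisons share their libraries with the TGF-β1 comparisons, so low levels in NC + TGF-β1 enter both the fall after TGF-β1 and the higher estimates here.

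**Figure D5:**
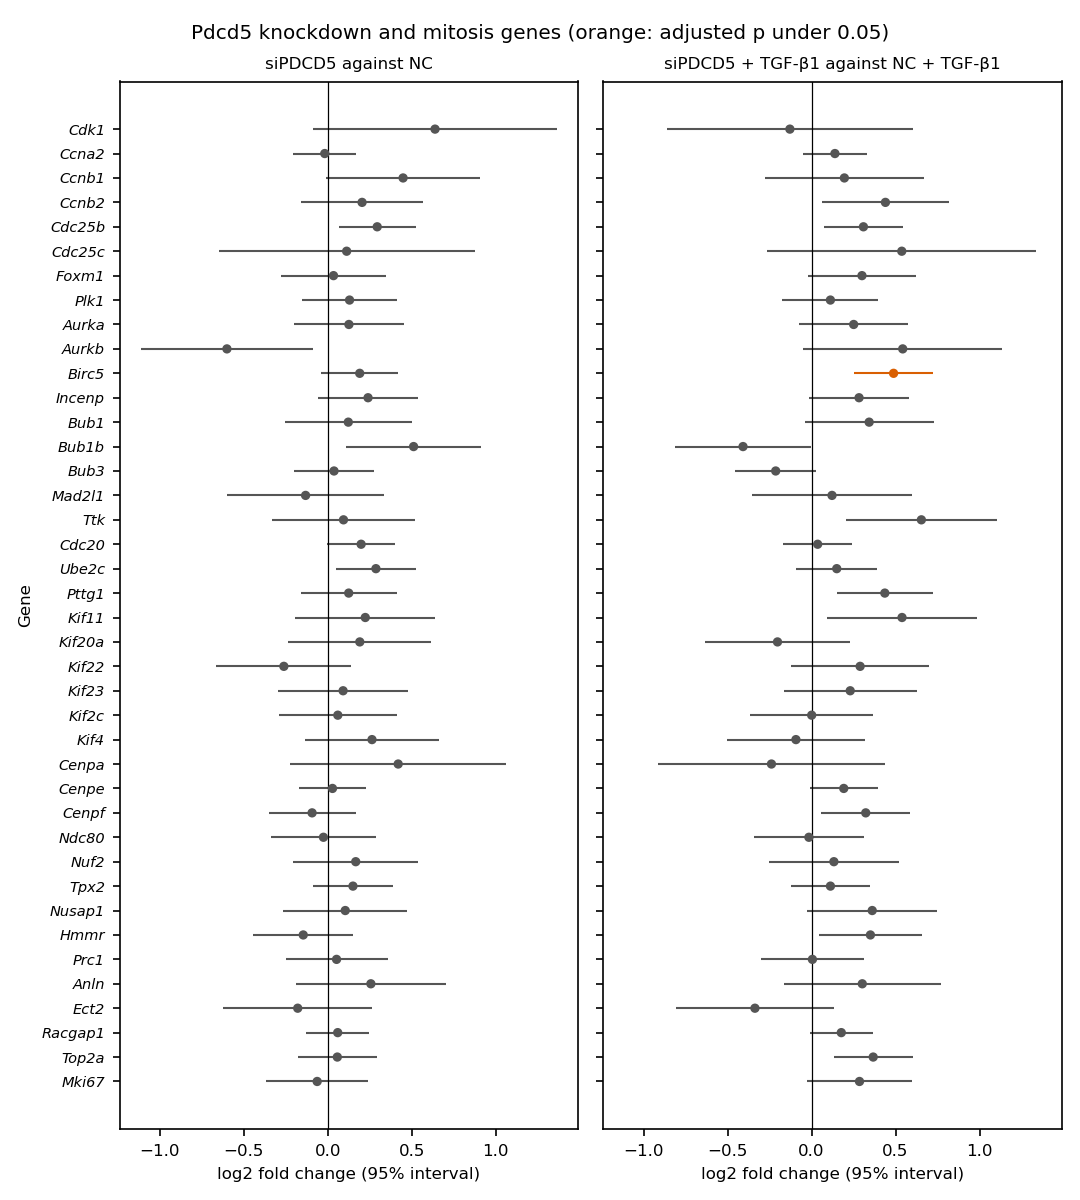
Log2 fold change with 95% interval for each of the 40 genes, siPDCD5 against NC on the left and siPDCD5 + TGF-β1 against NC + TGF-β1 on the right. Birc5 on the right (0.49) is the only gene past the threshold, in orange, and 31 and 32 of the 40 estimates lie above 0.

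The test of whether the TGF-β1 response differed by knockdown called none of the 40 genes and 0% of all genes tested. At an unadjusted p under 0.05 there were 4 of the 40, against 5.13% of all genes, and DESeq2, which called 15 genes in all, and limma-trend, which called 0, called 0 of the 40. The smallest p-values were those of Bub1b (difference of log2 fold changes −0.92 ± 0.27, adjusted p = 0.771), Aurkb (1.14 ± 0.37, adjusted p = 0.868) and Hmmr (0.50 ± 0.20, adjusted p = 0.951). A value above 0 means a smaller fall or a rise in siPDCD5 cells, and the median over the 40 was 0.12 against −0.03 over all genes. The 95% interval of the difference was −1.49 to −0.35 for Bub1b and 0.36 to 1.93 for Aurkb. Without the 2 libraries that stood apart, again none of the 40 was called, where 0.563% of all genes had a difference above 0 and 1.02% one below 0.

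Other genes of the cell cycle were counted in the same way, beside the 6.77% (NC) and 7.61% (siPDCD5) of all genes tested that fell after TGF-β1 and the 8.57% and 8.5% that rose. Of 86 further mitosis genes tested, 15 fell and 0 rose after TGF-β1 in NC cells, and 10 fell and 2 rose (Cdc25a and Hmgb3) in siPDCD5 cells, with medians of −0.29 and −0.26. The largest falls were those of Cep55 (−1.23), Aspm (−1.13) and Ckap2l (−0.79) in NC, and of Fam83d (−1.06), Zwilch (−0.84) and Aspm (−0.69) in siPDCD5 cells. Of 16 subunits of the anaphase-promoting complex 1 fell in NC cells (Anapc13, −0.35) and 0 in siPDCD5 cells, with medians of 0.005 and −0.01. Of 50 DNA replication genes 4 fell in NC cells, led by Rpa1 (−0.67), Tk1 (−0.63) and Rfc4 (−0.52), and 1 in siPDCD5 cells (Cdt1, −0.31), shares of 8% and 2% that are close to and below those of all genes. Of 21 genes of E2F, RB and the DREAM complex, E2f2 (−1.04) and Tfdp2 (−0.41) fell in NC cells and E2f2 (−0.98) in siPDCD5 cells. Among the 6 CDK inhibitors tested, Cdkn2b rose in both (0.89 and 0.88) and Cdkn2a in NC cells (0.40), while Cdkn1b, Cdkn2c and Cdkn2d fell in both, led by Cdkn2c (−1.08 and −0.87). All are log2 fold changes past the threshold. After knockdown without TGF-β1, 1 of the 86 further mitosis genes (Smc4, −0.45) and 1 of the 50 DNA replication genes (Rrm1, −0.37) fell, where 2.54% of all genes tested did. The estimate was above 0 for 57 of the 86 and for 40 of the 50, with medians of 0.06 and 0.15 against 0.02 over all genes. With TGF-β1, knockdown lowered Cenpt (−0.49) and raised Troap (0.78), both among the 86, where 1.22% of all genes tested fell and 0.33% rose.

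Calls were also counted by promoter match. Of the 24 genes with a CHR match 9 fell after TGF-β1 in NC cells and 7 in siPDCD5 cells, with medians of −0.46 and −0.41, and of the 9 without one 4 and 3 fell, with medians of −0.44 and −0.25. Of all genes tested 6.77% and 7.61% fell. Nusap1, which fell in both, holds neither element in its window. Bub3, which was not called, holds both, as its sequence above shows.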

How the data were processed

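QuantSeq 3′ mRNA-seq was made from 12 libraries of C22 cells, 3 per group, and groups were taken from the labels. The authors aligned reads with Bowtie2 to mm10 and counted unique and multiple alignments with Bedtools, and the deposited values are raw read counts per gene symbol, before any normalization. The annotation and the use of strand are not given in the sources used here. The 35 symbols listed more than once, none of them among the 40 genes, were kept as separate entries.

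The 40 genes and all other lists were chosen with earlier results of these data known. Counts were filtered in edgeR 4.0.16 (filterByExpr, minimum count 10, total 15), scaled by TMM and fitted as 1 model of 4 groups with the quasi-likelihood F test, with Benjamini-Hochberg adjustment over 12425 genes and a threshold of 0.05. CPM are TMM-scaled. Scripts were tested on simulated data. Genes called in a comparison were named in full (the 6 largest falls where over 12), or the 3 smallest p-values where under 3 were called. Per-library values were given for these and for the highest gene of each role.

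The results were recomputed with DESeq2 1.42.0, with limma-trend (limma 3.58.1) on quantile-normalized values, with upper-quartile scaling, with other filters, with the replicate number as a block, on the 6 libraries compared alone, without each library and, chosen after seeing the data, without 2 libraries together. R was version 4.3.3. Promoter windows were RefSeq GRCm38.p6. Ccna2, Cdc25c, Foxm1, Aurkb, Incenp, Kif20a and Tpx2 had no entry there. A called gene of the other cell cycle lists is not reported here.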

Additional observations from a re-analysis of the deposited data

Results flagged for a closer look

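Aurkb, the Aurora B kinase, was at 3.04, 3.78 and 3.07 CPM in NC, 2.07, 2.32 and 2.12 CPM in siPDCD5, 0.876, 1.27 and 1.39 CPM in NC + TGF-β1 and 1.88, 1.54 and 1.75 CPM in siPDCD5 + TGF-β1. Every knockdown library was lower than every control library without TGF-β1 and higher than every control library with it, and this opposite order in all libraries brought it here. Only the 40 genes were searched for this order, and its share of all genes was not counted. Taken singly, 12.5% of all genes tested lay wholly below without TGF-β1 and 8.84% wholly above with it. The NC + TGF-β1 levels of Aurkb are low, at 11, 17 and 19 counts. The difference of the log2 fold changes was 1.14 ± 0.37 (SE) and did not pass edgeR's interaction test after adjustment over all genes (adjusted p = 0.868), nor in any of 19 alternatives.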

How the results depend on the processing

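Among the genes named by the rule in each comparison no estimate reversed under an alternative run, nor did a median over the 40 genes. Cdk1, outside that rule, changed sign without the 2 libraries that stood apart. Its estimate went from 0.02 to −0.61 after TGF-β1 in NC cells and from −0.13 to 0.50 for knockdown with TGF-β1. Uncalled estimates of other genes also changed sign there, among them Incenp and Kif4 (NC cells) and Mad2l1, Bub1 and Bub3 (siPDCD5 cells). For knockdown they included Nusap1, Kif23 and Prc1 without TGF-β1 and Cenpa and Kif20a with it. After TGF-β1 in NC cells the count of called genes (14) stayed within 1.5 times itself except without the 2 libraries that stood apart, where it was 25, and without 1 library at a time it ran from 11 to 19. In siPDCD5 cells the count (10) was 6 with quantile normalization and limma-trend, 18 without the 2 libraries, and 5 to 16 without 1 library at a time. For knockdown without TGF-β1 it was 1 in place of 0 without the 2 libraries, and for knockdown with TGF-β1 it was 0 with the 6 libraries alone, 6 without the 2 libraries and 0 to 2 without 1 library. The causes were not tested. Without the 2 libraries Cdc25b (0.32, knockdown without TGF-β1) and Top2a (0.26, knockdown with TGF-β1) passed the threshold. Of 497 alternative values of named genes 430 kept their direction and their side of the threshold and 65 lost the call. Aurkb, Nusap1, Kif11, Cenpf and Hmmr in NC cells, and Cdc20, Ube2c and Nusap1 in siPDCD5 cells, passed in 20 of 20 alternatives, whereas Cenpa and Bub1b did so in 10 and Kif2c in 9. A library left out of a group leaves 2 there.

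With the replicate number as a block the counts were 14 and 6 after TGF-β1 in NC and siPDCD5 cells and 0 for each knockdown comparison and for the interaction. Libraries with the same number deviated together weakly or not at all (correlations of 0.17, 0.17 and 0.01 after TGF-β1 in NC, 0.03, 0.03 and −0.06 in siPDCD5 cells). In NC cells the mean was 0.11 for the same number and −0.06 for other numbers. With TGF-β1 none of the 3 pairs of the knockdown comparison was above 0, and the numbers were not taken to pair the libraries. In NC cells 2 of 3 libraries correlated best with their own number, and in the other comparisons 0 did.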
